A study of Mus musculus with 4 samples.

Results

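The genes examined were the 7 members of the core clock loop named Arntl, Clock, Npas2, Nr1d1, Nr1d2, Rora and Rorb, which were selected by symbol from the 15500 genes of the deposited liver table. All 7 were listed. They encode the transcriptional activators of the clock (BMAL1, CLOCK and NPAS2), its REV-ERB repressors (REV-ERBα and REV-ERBβ) and the ROR receptors (RORα and RORβ). BMAL1 pairs with CLOCK or with its relative NPAS2 and binds E-box sequences in target genes, Nr1d1 and Nr1d2 among them. The REV-ERB receptors bind a response element known as the RORE and silence Arntl and other genes with the help of the corepressor NCOR1 and the deacetylase HDAC3, with heme as their ligand. The ROR receptors occupy the same element and activate it. In mouse liver this antagonism keeps Nr1d1 mRNA, which peaks in the light phase, out of phase with Arntl mRNA.

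The study used Kunming mice and asked how dietary conjugated linoleic acid (CLA), a fatty acid that activates the nuclear receptor PPARα, affects the hepatic clock. There were 4 conditions with 1 RNA-seq library each. Vehicle mice received chow supplemented with 1.5% (w/w) linoleic acid, with vehicle injections where these applied, and CLA mice received chow with 1.5% CLA in its place. GW6471 mice were kept on the linoleic acid diet and were injected intraperitoneally each day with 20 mg/kg of the PPARα antagonist GW6471, and CLA+GW6471 mice received the CLA diet with the same injections. The labels give 6 mice per group and a CLA diet of 28 days, but do not say which mouse or pool of mice each library came from. The study's methods name male wild-type mice of 5 weeks at purchase and sampling at zeitgeber time 8 (8 h after lights on) for the Vehicle and CLA groups, while the sources used here do not give the sampling time of the GW6471 groups.

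The sequences below show where the elements of this loop lie at genes whose levels are described here. The first 3 are the regions amplified by the study's chromatin immunoprecipitation primers, each of which was located in mm9, and they are printed on the strand of the gene. Capitals mark the half-site AGGTCA, which is shared by PPAR, REV-ERB and ROR elements, the E-box CACGTG, or an 11-base RORE match (an A/T-rich flank in front of AGGTCA or GGGTCA). Both strands were searched, and a RORE match that ends in AGGTCA contains the half-site.
Nr1d1 promoter amplicon, chr11:98636937-98637134, minus strand, 198 bases: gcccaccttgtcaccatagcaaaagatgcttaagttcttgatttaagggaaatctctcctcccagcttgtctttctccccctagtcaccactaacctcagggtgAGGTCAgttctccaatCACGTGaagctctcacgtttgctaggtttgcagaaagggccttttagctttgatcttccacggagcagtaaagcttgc
Nr1d1 enhancer amplicon, chr11:98634435-98634685, minus strand, 251 bases: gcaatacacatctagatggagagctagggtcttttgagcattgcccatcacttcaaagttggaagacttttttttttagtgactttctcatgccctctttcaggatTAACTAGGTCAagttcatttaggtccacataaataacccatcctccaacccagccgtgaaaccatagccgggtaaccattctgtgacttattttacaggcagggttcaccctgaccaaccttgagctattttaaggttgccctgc
Clock promoter amplicon, chr5:76735280-76735476, minus strand, 197 bases: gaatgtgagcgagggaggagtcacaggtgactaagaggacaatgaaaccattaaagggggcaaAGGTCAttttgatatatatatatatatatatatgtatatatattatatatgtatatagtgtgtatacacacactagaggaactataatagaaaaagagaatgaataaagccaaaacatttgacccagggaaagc
The other 2 are RefSeq promoter windows of build GRCm38.p6, from 250 bases before to 50 bases after an annotated start.
Arntl promoter at the second of 2 starts, chr7:113207261-113207560, plus strand: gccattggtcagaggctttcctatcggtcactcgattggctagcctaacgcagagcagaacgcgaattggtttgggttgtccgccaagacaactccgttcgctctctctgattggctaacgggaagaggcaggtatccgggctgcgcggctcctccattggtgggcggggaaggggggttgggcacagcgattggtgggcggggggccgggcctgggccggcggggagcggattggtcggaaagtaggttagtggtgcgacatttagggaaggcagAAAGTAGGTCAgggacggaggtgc
Nr1d2 promoter, chr14:18239057-18239356, minus strand: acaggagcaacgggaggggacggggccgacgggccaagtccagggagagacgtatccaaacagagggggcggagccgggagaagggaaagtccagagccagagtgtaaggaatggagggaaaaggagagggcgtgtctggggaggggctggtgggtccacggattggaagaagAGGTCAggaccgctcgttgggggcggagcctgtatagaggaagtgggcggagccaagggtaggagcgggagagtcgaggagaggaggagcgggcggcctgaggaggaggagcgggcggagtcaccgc

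The Nr1d1 promoter amplicon lies 290 to 487 bases upstream of the 5′ end of the gene and holds 1 half-site, at bases 105 to 110, together with 1 E-box at bases 121 to 126. The Nr1d1 enhancer amplicon lies 1962 to 2212 bases downstream of the 5′ end and overlaps no annotated exon of Nr1d1, so that it is intronic. Its half-site, at bases 112 to 117, is the end of a RORE match at bases 107 to 117. In both regions, the element that the study placed in its PPARα reporter constructs ends in the capitalised half-site, so the enhancer element and the RORE match share their letters. The Clock amplicon, 1463 to 1659 bases upstream, holds a half-site at bases 64 to 69 without a RORE or E-box match.

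The Arntl window carries a RORE match at bases 277 to 287, just after the start. The Nr1d2 window carries a half-site at bases 174 to 179. All 7 genes had RefSeq promoters, 11 windows in total, and no other window held a RORE. One further Clock window held the half-site, on the opposite strand, and no window held CACGTG. Among all 32851 promoter windows of this length, 0.384% held a RORE match, 16.3% held AGGTCA and 7.15% held CACGTG. In windows cut to 251 bases, the length of the enhancer amplicon, the share with a RORE match was 0.335%. These matches are letters in a window and give no evidence of binding.

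Expression was deposited as FPKM, in which fragment counts are divided by transcript length and by sequencing depth, and the FPKM of a library summed to between 497015 and 522893. The steps between low values of short genes gave an estimated depth of 18740000 to 19240000 reads per library. No test between conditions was possible with 1 library each, so every difference below describes these libraries. The labelled tissue was checked against its markers. Of 16 hepatocyte markers 12 were listed and 8 of these had a mean under 1 FPKM, Cyp2e1 at 0.065 and Fga at 0.055 FPKM among them. Ttr was listed at 0 in GW6471, whereas Alb, Trf and Fgb had means of 922, 277 and 76.3 FPKM. The listed endothelial markers were all under 1 FPKM on average (5 of 5), as were 5 of 6 stellate cell and fibroblast markers and 2 of 3 macrophage markers. The remaining stellate cell and fibroblast marker, Dcn, had a mean of 1323 FPKM. Of the 4 cholangiocyte markers 1 was under 1 FPKM on average, and Sox9 had the highest mean of them, 48.8 FPKM. The gene with the highest mean of the table was Sprr1a, a cornified envelope protein of squamous epithelium, at 19942 FPKM. Of the other 4 squamous markers, Krt14, Krt6a and Trp63 were under 1 FPKM on average and Krt5 had a mean of 3.25 FPKM. The low hepatocyte markers and the high Sprr1a go against the labelled tissue, liver, which is used here as the label only. In such bulk libraries, fewer cells of a type and less RNA per cell cannot be told apart.

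The 7 genes covered a wide range of levels. On the FPKM scale, which is per length, Nr1d1 had the highest mean (21.7), followed by Arntl (17.4), Nr1d2 (11.5), Clock (5.57) and Rora (2.40). Npas2 had a mean of 0.065 FPKM and Rorb of 0.0025 FPKM. Nr1d1 was above 74.9% of all listed genes by mean level, and Npas2 above 19.5%. The order of the upper 3 changed between the libraries. Arntl was the highest of the 7 in Vehicle, Nr1d1 was the highest in the other 3 libraries, and in CLA both REV-ERB genes stood above Arntl. The filter for ratios, a mean of at least 1 FPKM, was passed by 5 of the 7 genes and left 10355 genes in all, which are referred to as the tested genes although only a fold was applied to them.

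Arntl encodes BMAL1, the partner of CLOCK in the activator complex. Arntl (Entrez 11865, mm9 chr7:120350979-120457636, plus strand) had 19.83 FPKM in Vehicle and 11.59 in CLA, and with the antagonist 17.12 in GW6471 and 21.01 in CLA+GW6471. The CLA library was the low one, and both libraries with GW6471 lay nearer to Vehicle. Clock (Entrez 12753, mm9 chr5:76639992-76733817, minus strand) encodes the histone acetyltransferase CLOCK. It had 5.94 FPKM in Vehicle and 3.54 in CLA, and with the antagonist 5.99 in GW6471 and 6.80 in CLA+GW6471. Its order over the libraries was that of Arntl except for Vehicle and GW6471, which differed by less than their counting error. The Arntl level was 2.86 to 3.34 times the Clock level in every library.

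Npas2 (Entrez 18143, mm9 chr1:39250576-39420079, plus strand) encodes an activator that can stand in for CLOCK and is prominent in forebrain. Npas2 had 0.06 FPKM in Vehicle, GW6471 and CLA+GW6471 and 0.08 in CLA, values that correspond to about 5 or 6 reads. A difference for Npas2 was not detectable at this depth, since the counting interval of its log2 ratio of GW6471 to Vehicle ran from -2.14 to 2.10.

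Nr1d1 (Entrez 217166, mm9 chr11:98629246-98636647, minus strand) encodes REV-ERBα. It had 17.97 FPKM in Vehicle and 22.83 in CLA, and with the antagonist 22.71 in GW6471 and 23.29 in CLA+GW6471. The Vehicle library was the low one, and the 3 treated libraries lay between 22.71 and 23.29 FPKM. Nr1d2 (Entrez 353187, mm9 chr14:19036568-19071641, minus strand) is the gene of REV-ERBβ, which overlaps in function with REV-ERBα. It had 9.78 FPKM in Vehicle and 12.62 in CLA, and with the antagonist 13.77 in GW6471 and 9.94 in CLA+GW6471. Here the CLA and GW6471 libraries were high, while CLA+GW6471 was at the level of Vehicle. Both repressor genes were thus above Vehicle with either treatment alone, whereas in the combination Nr1d1 was still above Vehicle and Nr1d2 was not. The 3′ part of Nr1d1 overlaps Thra, the thyroid hormone receptor α gene on the opposite strand, over 263 of its 3124 annotated exonic bases. The sources used here do not say whether the counting used strand, so reads of the shared bases cannot be told apart. Thra itself had 8.06 FPKM in Vehicle and 10.15 in CLA, and with the antagonist 11.13 in GW6471 and 7.55 in CLA+GW6471.

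Rora (Entrez 19883, mm9 chr9:68501593-69236053, plus strand) encodes RORα, an activator that binds the RORE. It had 2.45 FPKM in Vehicle and 1.90 in CLA, and with the antagonist 2.69 in GW6471 and 2.57 in CLA+GW6471, again with CLA as the low library. Rorb (Entrez 225998, mm9 chr19:19005095-19185686, minus strand) encodes RORβ, a receptor of retina and brain, and had 0.01 FPKM in Vehicle and a listed value of 0 in the other 3 libraries.

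**Figure D1:**
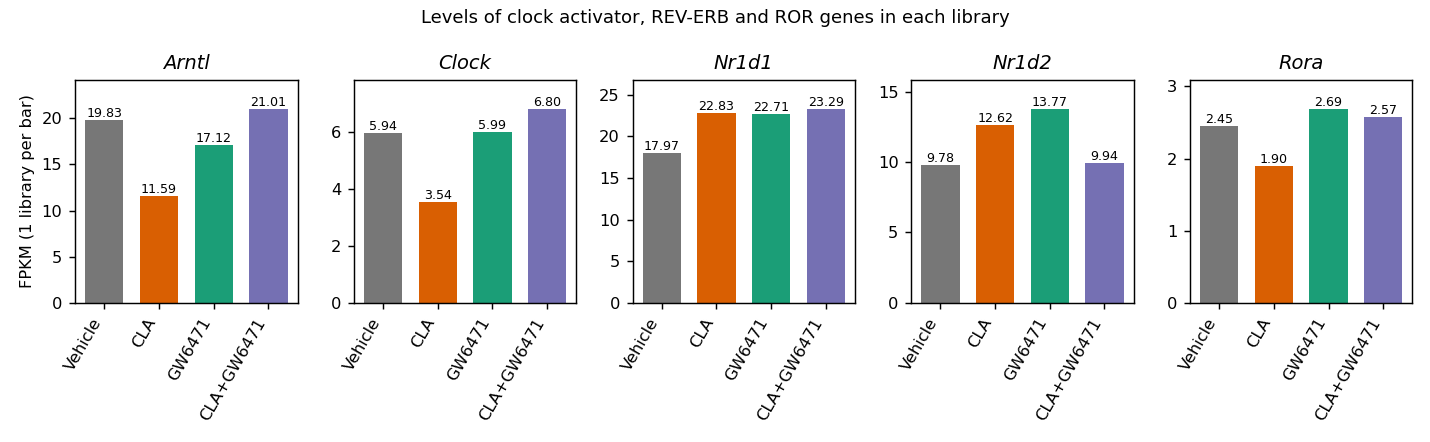
FPKM (vertical axes, each from 0) of the 5 genes with a mean of at least 1 FPKM, with 1 bar per library and therefore no error bar. Arntl, Clock and Rora are lowest in CLA, Nr1d1 is lowest in Vehicle at 17.97, and Nr1d2 is high in CLA (12.62) and GW6471 (13.77) only.

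Differences between libraries were computed as log2 ratios of FPKM + 0.1, which understates the change of low genes, and folds were taken from FPKM. A gene was called at 1.5-fold either way, with the mean filter above. A 95% counting interval (exact Clopper-Pearson) was computed from the estimated reads, and it covers counting error only, not the difference between animals. The comparisons share libraries, so they are not independent of each other.

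Whether the antagonist alone altered these genes is addressed by GW6471 against Vehicle. None of the 5 genes was called, in a comparison in which 5.41% of all tested genes were, 3.29% higher and 2.11% lower. Nr1d2 had the largest ratio, 1.41-fold higher in GW6471, with a log2 ratio of 0.49 (counting interval 0.37 to 0.62). Of all tested genes, 8.40% lay at least as far from 0. Nr1d1 was 1.26-fold higher, with a log2 ratio of 0.34 (0.21 to 0.46), and 19.7% of genes lay as far from 0. Arntl was at 0.86 times its Vehicle level, a log2 ratio of -0.21 (-0.34 to -0.086). The intervals of Clock, with a log2 ratio of 0.01 (-0.12 to 0.14), and of Rora, with 0.13 (-0.043 to 0.31), included 0. The other 3 of the 5 genes had an interval without 0, as did 54.9% of the 9762 tested genes with a known length. Over the 5 genes the median log2 ratio was 0.13, against -0.0041 over all tested genes.

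The antagonist on the CLA diet is addressed by CLA+GW6471 against CLA. Here 2 of the 5 genes were called, both higher, where 16% of all tested genes were called, 6.85% higher and 9.17% lower. Clock rose 1.92-fold, with a log2 ratio of 0.92 (0.79 to 1.09). Arntl rose 1.81-fold, with a log2 ratio of 0.85 (0.72 to 1.0). Of all tested genes, 5.12% lay as far from 0 as Clock and 6.35% as far as Arntl. Rora was 1.35-fold higher, at 0.42 (0.25 to 0.63), and Nr1d2 was at 0.79 times its CLA level, at -0.34 (-0.47 to -0.22). Nr1d1 was level between these libraries, at 0.03 (-0.088 to 0.15). The interval excluded 0 for 4 of the 5 genes and for 68.7% of the tested genes with a known length. Over the 5 genes the median log2 ratio was 0.42, against 0.0090 over all tested genes.

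The effect of the diet in the presence of the antagonist is addressed by CLA+GW6471 against GW6471. None of the 5 genes was called, beside 6.72% of all tested genes, 2.83% higher and 3.89% lower. Nr1d2 was at 0.72 times its GW6471 level, a log2 ratio of -0.47 (-0.60 to -0.34). Arntl was 1.23-fold higher, at 0.29 (0.17 to 0.42), and Clock 1.14-fold higher, at 0.18 (0.059 to 0.31). The intervals of Nr1d1, at 0.04 (-0.080 to 0.15), and of Rora, at -0.06 (-0.24 to 0.11), included 0. The interval excluded 0 for 3 of the 5 genes and for 59.2% of the tested genes with a known length.

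Without the antagonist, in CLA against Vehicle, Arntl and Clock were the 2 called genes, and both fell. Arntl was at 0.58 times its Vehicle level and Clock at 0.60 times. Of all tested genes 12.3% were called, 7.34% higher and 4.97% lower. Nr1d1 was 1.27-fold and Nr1d2 1.29-fold higher, and Rora was at 0.78 times its Vehicle level. The interval excluded 0 for all 5 genes and for 65.5% of the tested genes with a known length. The study displayed Arntl, Clock, Nr1d1 and Rora from these same 2 libraries, so their direction here is not independent evidence. The combination against Vehicle showed none of the 5 called, beside 1.14% of all tested genes, 0.512% higher and 0.628% lower. There Nr1d1 had the largest ratio, 1.30-fold higher with a log2 ratio of 0.37 (0.25 to 0.50), and 4.46% of genes lay as far from 0. Clock was 1.14-fold higher, at 0.19 (0.070 to 0.32), and the intervals of Arntl, Nr1d2 and Rora included 0. The interval excluded 0 for 2 of the 5 genes and for 32.4% of the tested genes with a known length.

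**Figure D2:**
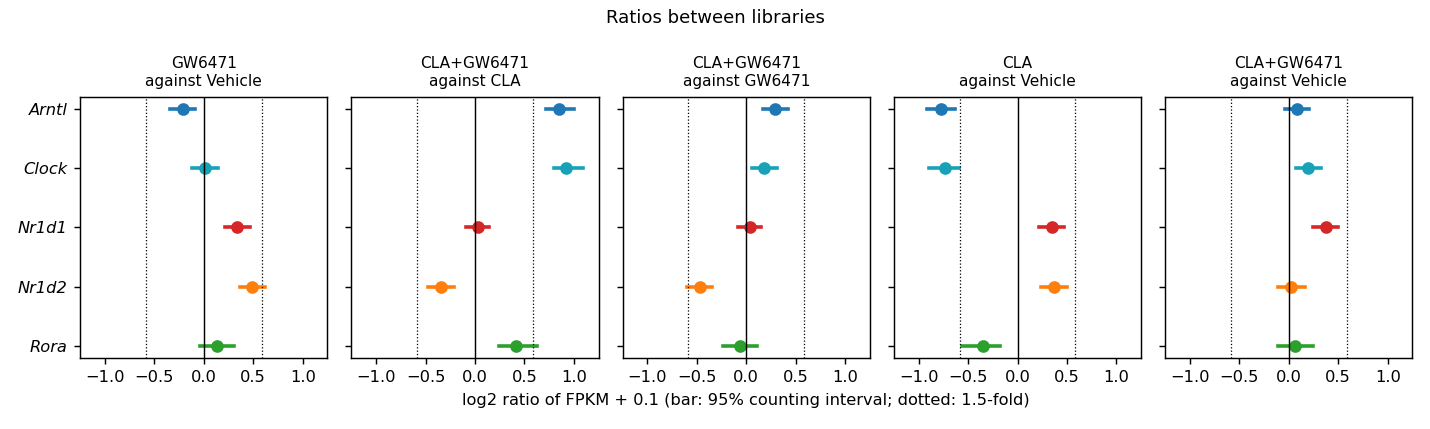
Log2 ratios of FPKM + 0.1 (horizontal axis) with 95% counting intervals (bars) for the 5 genes in each of the 5 comparisons, with dotted lines at 1.5-fold. Arntl and Clock pass the line to the right in CLA+GW6471 against CLA (0.85 and 0.92) and to the left in CLA against Vehicle, and no gene passes it in the other 3 comparisons.

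The change in the CLA ratio with GW6471 was computed as the log2 ratio of CLA+GW6471 to GW6471 minus that of CLA to Vehicle, which equals the change in the GW6471 ratio with CLA. For Arntl this difference was 1.06, from -0.77 without GW6471 to 0.29 with it, and for Clock it was 0.91, from -0.73 to 0.18. Nr1d2 went the other way, by -0.83, from 0.36 to -0.47. The difference was smaller for Nr1d1, at -0.31, and for Rora, at 0.29. Differences of this kind were widespread, since 10.1% of all tested genes had one at least as large as Arntl, 14.4% as Clock and 17.6% as Nr1d2. The CLA ratios without and with GW6471 had opposite signs, both beyond the counting interval, for 3 of the 5 genes (Arntl, Clock and Nr1d2) and for 40% of the 9762 tested genes with a known length. Split into an average CLA part, an average GW6471 part and this difference, the squared log2 variation of Nr1d2 over the 4 libraries lay to 95.5% along the difference, against a median of 60.4% over all tested genes. The share was 63.9% for Arntl, 41.4% for Clock, 25.4% for Nr1d1 and 14.9% for Rora. The largest part for Rora, 54.1%, and for Clock, 43.5%, lay along the average GW6471 difference, against a median of 15.8% over all tested genes. Both had higher levels with the antagonist on average, although Clock was level between GW6471 and Vehicle, at 0.01. For Nr1d1, 38.8% lay along the average CLA difference, against a median of 10.5%, and nearly as much, 35.8%, along the average GW6471 difference. Vehicle was its low library, and it was level between CLA+GW6471 and GW6471, at 0.04. None of these differences was tested.

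**Figure D3:**
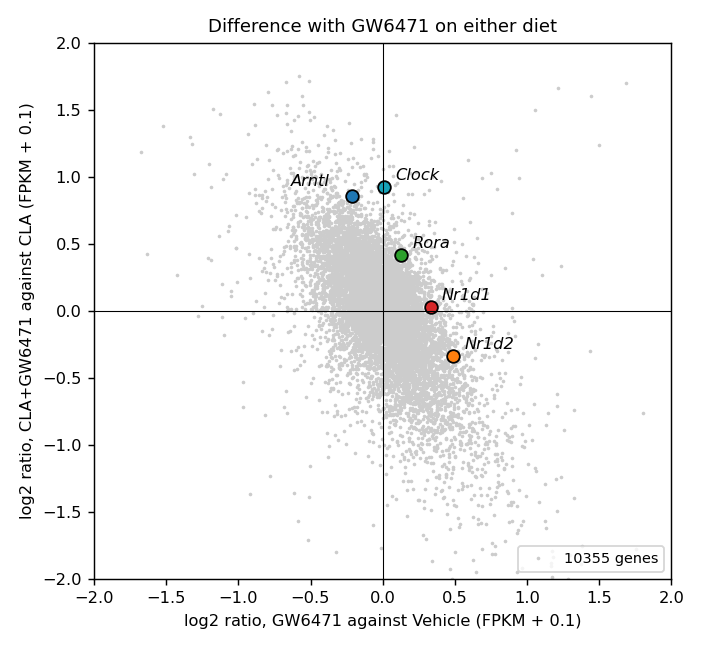
Log2 ratios of FPKM + 0.1 for GW6471 over Vehicle (horizontal) and CLA+GW6471 over CLA (vertical) for the 10355 tested genes (grey points, 37 outside the axes) and the 5 genes (coloured points). The ratios on either axis use different libraries. Arntl and Clock sit high on the vertical axis, with Clock near 0 and Arntl at -0.21 on the horizontal one. Nr1d2 lies in the lower right.

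Within a library, the balance of repressor and activator mRNA moved as follows. The ratio of Nr1d1 to Arntl FPKM was 0.906 in Vehicle and 1.97 in CLA, and with the antagonist 1.33 in GW6471 and 1.11 in CLA+GW6471. The ratio of the summed REV-ERB genes to the sum of Arntl and Clock was 1.08 in Vehicle and 2.34 in CLA, and with the antagonist 1.58 in GW6471 and 1.19 in CLA+GW6471. Both ratios were highest in CLA, followed by GW6471, CLA+GW6471 and Vehicle. With the antagonist they were higher on the linoleic acid diet and lower on the CLA diet. Between the REV-ERB genes, Nr1d1 was 1.65 times Nr1d2 in GW6471 and 2.34 times in CLA+GW6471, beside 1.84 times in Vehicle and 1.81 times in CLA. Nr1d1 was 7.33 times Rora in Vehicle and 12.0 times in CLA, and with the antagonist 8.44 times in GW6471 and 9.06 times in CLA+GW6471.

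The summed levels of the marker lists also differed between the libraries. The summed FPKM of the 12 listed hepatocyte markers was 952 in Vehicle and 1819 in CLA, and with the antagonist 1477 in GW6471 and 882 in CLA+GW6471, nearly all of it Alb, Trf and Fgb. These 3 genes were high in CLA and GW6471, as Nr1d2 was, whereas Tat was lowest in CLA at 0.46 FPKM and Apoa2 highest in CLA+GW6471 at 1.73 FPKM. The sum of the 5 squamous markers, nearly all of it Sprr1a, was 19049 FPKM in Vehicle and 15815 in CLA, and with the antagonist 18798 in GW6471 and 26119 in CLA+GW6471, with the same order of libraries as Arntl. The 4 cholangiocyte markers summed to 85.6 FPKM in Vehicle and 66.9 in CLA, and with the antagonist 75.1 in GW6471 and 84.5 in CLA+GW6471. The low sum in CLA came from Sox9 (34.72 FPKM there and 48.67 to 57.05 in the other libraries), while Epcam was highest in CLA at 8.95 FPKM. The stellate cell and fibroblast sum, nearly all of it Dcn, was highest in CLA (1507 FPKM) and lowest in CLA+GW6471 (1149). The 3 listed macrophage markers summed to 24.2 to 36.6 FPKM, the endothelial ones to 0.51 to 0.96 and the 2 listed adipocyte markers to 4.47 to 7.84. The part of these markers in the differences of Nr1d2, Arntl and Clock was not tested.

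Profiles over the 4 libraries were compared by the Euclidean distance between log2 values centred on each gene's mean. Among the 5 genes the closest pair was Arntl and Clock, at 0.17, and the most distant was Arntl and Nr1d2, at 0.996. Nr1d1 and Nr1d2 were 0.37 apart, as were Clock and Rora. Among the 8182 genes with a mean of at least 5 FPKM, the nearest to Arntl were Lyar, a nucleolar growth regulator, at 0.041, Il17ra, a subunit of interleukin 17 receptors, at 0.058, and Slc19a2, a thiamine transporter, at 0.066. The nearest to Clock were Prrg4 at 0.079, Tsc22d2 at 0.098 and Zbtb21 at 0.10. Clock had the fewest neighbours, with 33 genes within 0.2, against 128 for Arntl, 188 for Nr1d1, 341 for Nr1d2 and 518 for Rora. Nr1d1 was followed most closely by Pdcd7 (0.063), Tmem243 (0.077) and Wasf1 (0.077). Among the nearest to Nr1d2 were Tmem30a, a subunit of lipid flippases, at 0.026, and Zfp9 at 0.037. The nearest to Rora were Kdm6b, a histone H3K27 demethylase, at 0.025, Zfp451 at 0.029 and Cebpg at 0.030. With 4 libraries such likeness is a description of a few values.

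The other genes of the loop were described by lists of the pathway, with the same call. Of 14 genes with E-boxes that CLOCK and BMAL1 activate, 13 were listed and 8 tested. In GW6471 against Vehicle 2 were higher and 1 lower, beside 3.29% and 2.11% of all tested genes, with a median log2 ratio of 0.14 against -0.0041 over all tested genes. Dbp, a transcription factor of clock output, rose from 0.77 FPKM to 1.87 FPKM with GW6471, at a log2 ratio of 1.18 (0.60 to 1.99). Cry1, a repressor of CLOCK and BMAL1, fell from 10.71 FPKM to 6.71 FPKM, at -0.67 (-0.86 to -0.49). In CLA+GW6471 against CLA 2 were higher and 2 lower, beside 6.85% and 9.17% of all tested genes, with a median of -0.23. Both named genes turned round on the CLA diet, with Dbp at -1.83 (-2.63 to -1.36) and Cry1 at 1.48 (1.29 to 1.70). The other gene called higher there was Per1, at 0.61. Genes of this list therefore did not share 1 direction, while Cry1 and Per1 were lowest in CLA and highest in CLA+GW6471, like Arntl and Clock.

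Of 9 genes that REV-ERB represses or ROR activates, 5 were listed and tested. In GW6471 against Vehicle 0 were higher and 1 was lower, beside 3.29% and 2.11% of all tested genes, the gene being Cry1, which stands in both lists. In CLA+GW6471 against CLA 1 was higher, Cry1, and 1 lower, beside 6.85% and 9.17% of all tested genes. The latter was Avpr1a, a vasopressin receptor, which fell from 18.88 FPKM to 4.64 FPKM, at a log2 ratio of -2.0 (-2.24 to -1.82). The medians were 0.24 in the first comparison and -0.32 in the second, against -0.0041 and 0.0090 over all tested genes.

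The counts of the lists that follow are read against the shares of all tested genes called, 5.41% for GW6471 over Vehicle and 16% for CLA+GW6471 over CLA. Of the 6 corepressor genes, 0 were called in either comparison, and their medians were 0.12 and 0.01. Ncor1 had 40.48 FPKM in Vehicle and 36.58 in CLA, and with the antagonist 44.44 in GW6471 and 41.38 in CLA+GW6471. Gps2, a subunit of the same complex, came nearest to the limit, at 0.57 (0.46 to 0.69) in CLA+GW6471 against CLA. In GW6471 against Vehicle, Tbl1x, another subunit, was at 0.20 (0.11 to 0.29) and Gps2 at -0.20 (-0.31 to -0.086). Of the 7 coactivator genes, 0 were called in GW6471 against Vehicle, where Ep300 was at 0.33 (0.27 to 0.40) and Ppargc1b at 0.32 (-0.13 to 0.86). In CLA+GW6471 against CLA 1 was called, Crebbp, a histone acetyltransferase, which rose from 4.26 to 6.97 FPKM, at 0.70 (0.56 to 0.86). Ncoa1 was at 0.43 (0.21 to 0.68) there.

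Of 10 genes of enzymes that modify or degrade these proteins, 0 were called in GW6471 against Vehicle, beside 5.41% of all tested genes. Siah2, a ubiquitin ligase of REV-ERBα, was at 0.37 (0.26 to 0.48) there, and Huwe1, another ubiquitin ligase, at -0.28 (-0.31 to -0.24). In CLA+GW6471 against CLA 1 was called, beside 16% of all tested genes. It was Huwe1, which rose from 32.99 to 53.66 FPKM, at 0.70 (0.66 to 0.74). Sirt1, the deacetylase that binds CLOCK and BMAL1, was at 0.53 (0.35 to 0.72) in the same comparison.

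Heme is the ligand of REV-ERB. Of 9 genes of heme synthesis and breakdown, 1 was higher and 0 lower in GW6471 against Vehicle, and 0 were higher and 3 lower in CLA+GW6471 against CLA, with medians of 0.25 and -0.24. Of all tested genes, 3.29% were higher and 2.11% lower in the first comparison, and 6.85% higher and 9.17% lower in the second. Hmox1, which breaks heme down, rose from 69.62 FPKM in Vehicle to 109.64 in GW6471, at 0.65 (0.58 to 0.73). Uros was at -0.56 (-0.93 to -0.22) in that comparison. Alad, which acts early in heme synthesis, fell from 118.73 to 63 FPKM in CLA+GW6471 against CLA, at -0.91 (-1.01 to -0.82). Fech, which inserts iron into the ring, fell from 54.53 to 31.92 FPKM, at -0.77 (-0.86 to -0.69).

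Of the 6 relatives with a bHLH-PAS structure, 2 were higher and 0 lower in GW6471 against Vehicle, and 0 were higher and 2 lower in CLA+GW6471 against CLA, where the shares over all tested genes were those given for the heme genes. Epas1, which encodes the hypoxia factor HIF-2α, had 5.28 FPKM in Vehicle and 12.99 in CLA, and with the antagonist 10.7 in GW6471 and 5.83 in CLA+GW6471. It was called in both comparisons, at 1.01 (0.87 to 1.17) and at -1.14 (-1.30 to -1.01). Hif1a was at 0.62 (0.57 to 0.68) in GW6471 against Vehicle. Ahr, the aryl hydrocarbon receptor, fell from 36.13 FPKM in CLA to 15.94 in CLA+GW6471, at -1.18 (-1.26 to -1.10). The medians of these relatives were 0.36 and -0.54, against -0.0041 and 0.0090 over all tested genes.

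**Figure D4:**
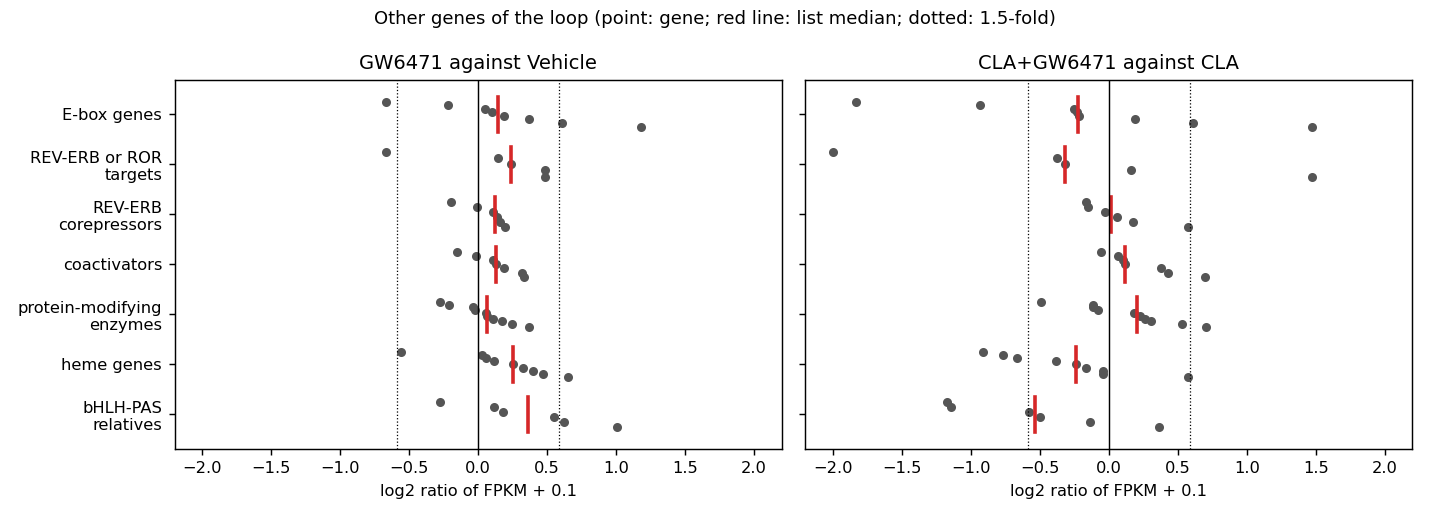
Log2 ratios of FPKM + 0.1 (horizontal axis) of the tested genes of 7 lists (1 point per gene, red line for the list median, dotted lines at 1.5-fold), for GW6471 over Vehicle on the left and CLA+GW6471 over CLA on the right. The corepressor genes stay inside the dotted lines in both panels, and the bHLH-PAS relatives have medians of 0.36 on the left and -0.54 on the right.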

How the data were processed

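RNA labelled as liver, from 4 mouse groups, was sequenced on an Illumina instrument, with 1 library per group. The authors used BWA and Bowtie for mapping (mm9) and Cufflinks for expression values, with versions not given in the sources used here, and deposited FPKM with 2 decimals for 15500 genes, in 1 column per library. The table names no unit, which was taken from the methods, and the sources used here do not say how its genes were filtered. Of the genes, 107 had no symbol and 25 a symbol turned into a date, and none of these was a gene named here. All columns were used as deposited.

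Depth was estimated from low FPKM of single-transcript genes under 1000 nt, and reads per gene from that depth and the longest coding transcript of GENCODE vM1, so counting intervals are approximate. Ratios used FPKM + 0.1 and a mean of at least 1 FPKM. A call was 1.5-fold, without a test. Pseudocounts, scalings, filters and folds were varied. Calculations used scipy 1.17.1, numpy 2.4.6 and pandas 2.3.3 under Python 3.11.15, and plots used matplotlib 3.10.9. Primer positions were matched to mm9, and promoters came from RefSeq (GRCm38.p6).

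The members and lists were chosen with earlier results of these data known. Named genes were the 7 members, the 2 genes of each list with the largest absolute log2 ratio of GW6471 to Vehicle and of CLA+GW6471 to CLA, and the 3 genes nearest to each member in profile. Thra, Per1 and the marker genes were named beside them. Results for some genes that this rule names are not reported here.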

Additional observations from a re-analysis of the deposited data

Results flagged for a closer look

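The log2 ratio with CLA had opposite signs without and with GW6471, each beyond its counting interval, for 3 of the 5 genes, as for 40% of the 9762 tested genes with a known length. The difference (with GW6471 minus without) was 1.06 for Arntl and 0.91 for Clock, which were lower in CLA than in Vehicle and higher in CLA+GW6471 than in GW6471. It was -0.83 for Nr1d2, which was higher in CLA than in Vehicle and lower in CLA+GW6471 than in GW6471. The difference was not tested, since each condition has 1 library, and 10.1%, 14.4% and 17.6% of all tested genes had one at least as large.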

How the results depend on the processing

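No paired analysis was possible because each condition has 1 library, so that the groups share only 1 replicate number, and for the same reason no library could be left out. Of 120 log2 ratios of the members other than Rorb under another pseudocount or scaling, 119 stayed within their counting interval. The remaining ratio, Clock in CLA+GW6471 against CLA, moved to 0.78 with a pseudocount of 1. The intervals of Npas2 are so wide that these settings could not carry its ratios outside them. Nr1d1 in CLA+GW6471 against GW6471 changed sign (-0.03) with every library scaled to 1 FPKM sum. Of 40 counts of called members under an alternative, 33 were within 1.5 times the main one, and the other 7 came with another fold, by construction. At 2-fold, 0 members were called in CLA+GW6471 against CLA and 0 in CLA against Vehicle, where 2 were called at 1.5-fold. With a limit of 25% higher or 20% lower, the counts were 2 in GW6471 against Vehicle, 4 in CLA+GW6471 against CLA, 1 in CLA+GW6471 against GW6471, 5 in CLA against Vehicle and 1 in CLA+GW6471 against Vehicle. The counts over all genes depended on low values. With no filter they were 1683, 3039, 1862, 2536 and 1104 in these comparisons, against 560, 1659, 696, 1275 and 118 with the filter at 1 FPKM and 269, 1072, 358, 772 and 35 with one at 5 FPKM. With a pseudocount of 1 they were 307 in GW6471 against Vehicle, 430 in CLA+GW6471 against GW6471 and 46 in CLA+GW6471 against Vehicle. Scaling to 1 FPKM sum moved the split of higher and lower genes from 341 and 219 to 401 and 162 in GW6471 against Vehicle, and from 293 and 403 to 199 and 548 in CLA+GW6471 against GW6471. Depth limits Npas2 and Rorb, for which no difference was detectable.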
